A study of Mus musculus with 25 samples.

Results

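The genes described here are the translation factors of the cytosol and the proteins of the mitochondrial ribosome, as far as the array annotation names them. They were taken by symbol, as every gene whose name starts with Eif and a digit from 1 to 6, with Eef1 or Eef2, or with Mrpl or Mrps and a digit, which gave 77 of the 8726 named genes on the array. Of these, 25 were classed as cytosolic factors and 52 as mitochondrial ribosome, 34 in its large and 18 in its small subunit. Class and subunit were read from the symbol alone, and whether each product sits in that ribosome or subunit was not checked. Each had 1 probe. The rule used no measured value. The Eef1 symbols on the array were Eef1akmt1, Eef1akmt2 and Eef1aknmt, enzymes that methylate the elongation factor eEF1A, and Eef1e1, a scaffold protein of the tRNA synthetase complex; Eef1a1, Eef1a2 and Eef2 themselves were not analysed here.

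The study asked how a tumor growing under the skin changes gene expression in the hypothalamus of the mouse. Male Balb/c mice aged 8 weeks received 1000000 cells of the colon carcinoma line CT-26.WT in 300 µl PBS under the skin, or the same volume of PBS alone, and the hypothalamus was taken after 18, 72 or 192 h. RNA of tumor-injected and PBS-injected mice was labelled with Cy3 and Cy5 and put together on oligonucleotide arrays printed in-house, so that every value is a log2 ratio of tumor over PBS. The 19 arrays used made up 11 replicates, with 5 for the 18 h samples, 2 for 72 h and 4 for 192 h. Of the 18 h and 192 h samples, replicates 1 and 2 were polyA RNA, hybridised in 1 dye orientation, with the tumor RNA in Cy5 in replicate 1 and in Cy3 in replicate 2. Replicates 3 to 5 were total RNA, hybridised in both orientations and averaged. Another 6 arrays, among them all those of 72 h replicates 1 and 2, were not analysed here. Whether each replicate came from 1 mouse or from pooled mice is not stated, so the p-values rest on a spread that may in part be technical. The direction of tumor over PBS follows the dye order that the labels give and is likely rather than settled.

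Translation starts when eIF4E binds the cap of an mRNA and eIF2 brings the initiator tRNA to the small ribosomal subunit, with eIF3 as the scaffold between them. Stress kinases such as PERK, the product of Eif2ak3, slow initiation by phosphorylating eIF2, and 4E-BP proteins slow it by holding eIF4E. The mitochondrial ribosome is a separate machine, whose proteins are encoded by nuclear genes. It is assembled in the organelle, where it makes the membrane proteins of the respiratory chain that mitochondrial DNA encodes. Its activity bears on energy supply in neurons, the cells that carry most of the hypothalamic control of appetite.

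Spots were faint. Between 3056 and 9839 spots were measured on an array, and the median signal of an array was 0.912 to 2.75 times its local background. The number of arrays and this brightness limit the precision. In spot brightness, the arrays of 18 h replicate 4 matched the other arrays least. Their median rank correlations were 0.15 and 0.22, beside 0.30 to 0.48 for the arrays of other replicates. Of the 9 hypothalamic peptide genes on the array, Oxt was measured on 19 of 19 arrays, Avp on 16, Pmch on 15 and Ghrh, the fewest, on 10. No gene of 8 marker lists (neurons, hypothalamic peptides, astrocytes, oligodendrocytes, microglia, vessels, pituitary and blood) passed an adjusted p of 0.05 in limma at any time. In bulk tissue, fewer cells of a type and less RNA per cell cannot be told apart. All 77 genes had a value in at least 1 replicate, and Mrps21 and Mrps36 had one in all 11. A gene was tested at a time when at least 3 replicates at 18 h, 2 at 72 h or 3 at 192 h had a value. That held for 22, 5 and 10 of the 25 cytosolic factors and for 44, 20 and 26 of the 52 mitoribosomal genes at 18, 72 and 192 h. The 9 genes tested at no time were Eif2b1, Eif2b2, Eif4ebp2, Mrpl21, Mrpl30, Mrpl35, Mrpl44, Mrpl58 and Mrps28.

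No member of either class passed an adjusted p of 0.05 in limma at 18, 72 or 192 h, and the same was true of all genes (0% of 5065, 0% of 1934 and 0% of 2802 tested). The unadjusted p was under 0.05 for 2 of 66 members at 18 h, 0 of 25 at 72 h and 3 of 36 at 192 h, beside 5.35%, 1.71% and 4.25% of all genes. The median fitted log2 ratio of the cytosolic factors was 0.011 at 18 h, 0.088 at 72 h and -0.030 at 192 h. That of the mitochondrial ribosome was 0.0032, 0.0086 and -0.064, and that of all genes tested -0.0025, 0.013 and -0.026.

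**Figure D1:**
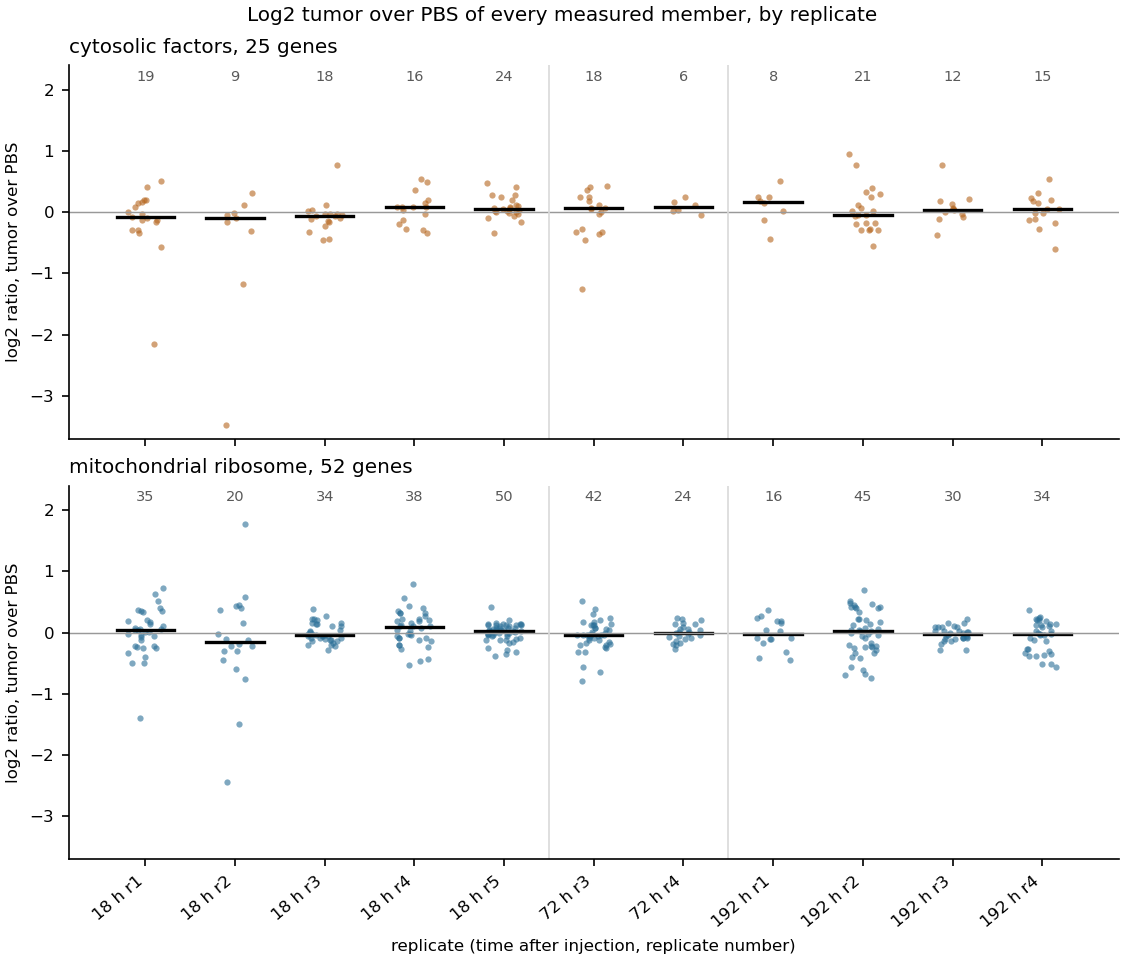
Each point is the log2 ratio of tumor over PBS of 1 gene in 1 replicate, for the 25 cytosolic factors above and the 52 genes of the mitochondrial ribosome below; r1 to r5 are the replicate numbers, the black bar is the median and the number at the top counts the genes measured. The medians lie close to 0 in every replicate, and the lowest points are Eef1e1 at -3.49 and Mrpl48 at -2.45, both in 18 h replicate 2.

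The median log2 ratio of the mitoribosomal genes measured in a replicate was 0.040, -0.16, -0.039, 0.091 and 0.027 in 18 h replicates 1 to 5, -0.040 and -0.0012 in 72 h replicates 3 and 4, and -0.028, 0.029, -0.018 and -0.020 in 192 h replicates 1 to 4. Medians of both signs were found at 18 and at 192 h. For the cytosolic factors the medians were -0.076, -0.095, -0.066, 0.084 and 0.047 at 18 h, 0.060 and 0.077 at 72 h, and 0.17, -0.042, 0.038 and 0.057 at 192 h. The 2 values at 72 h were both above 0, but rested on 18 and 6 genes measured, and only 5 cytosolic factors could be tested there.

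Between 24% and 96% of the cytosolic factors were measured in a replicate, and between 30.8% and 96.2% of the mitoribosomal genes. Values above 0 were found for 11 of 22 cytosolic factors at 18 h, 4 of 5 at 72 h and 4 of 10 at 192 h, and for 24 of 44, 10 of 20 and 9 of 26 mitoribosomal genes, beside 49.3%, 52.7% and 41.9% of all genes. A member had the same sign in every replicate measured in 9 of 66 cases at 18 h, 15 of 25 at 72 h and 8 of 36 at 192 h, beside 16.3%, 53.1% and 14.3% of all genes. At 72 h, 9 of these were above 0 and 6 below, beside 27.1% and 26% of all genes. The intervals bound how large a change the arrays could have missed. The median half-width of a 95% interval was 0.31, 0.35 and 0.30 for the cytosolic factors at 18, 72 and 192 h and 0.30, 0.35 and 0.31 for the mitochondrial ribosome, on the log2 scale. At 18 h the interval lay between -1 and 1, a 2-fold change either way, for 21 of 22 cytosolic factors and 43 of 44 mitoribosomal genes, the exceptions being Eef1e1 and Mrpl48. At 72 and 192 h it did so for every member tested.

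**Figure D2:**
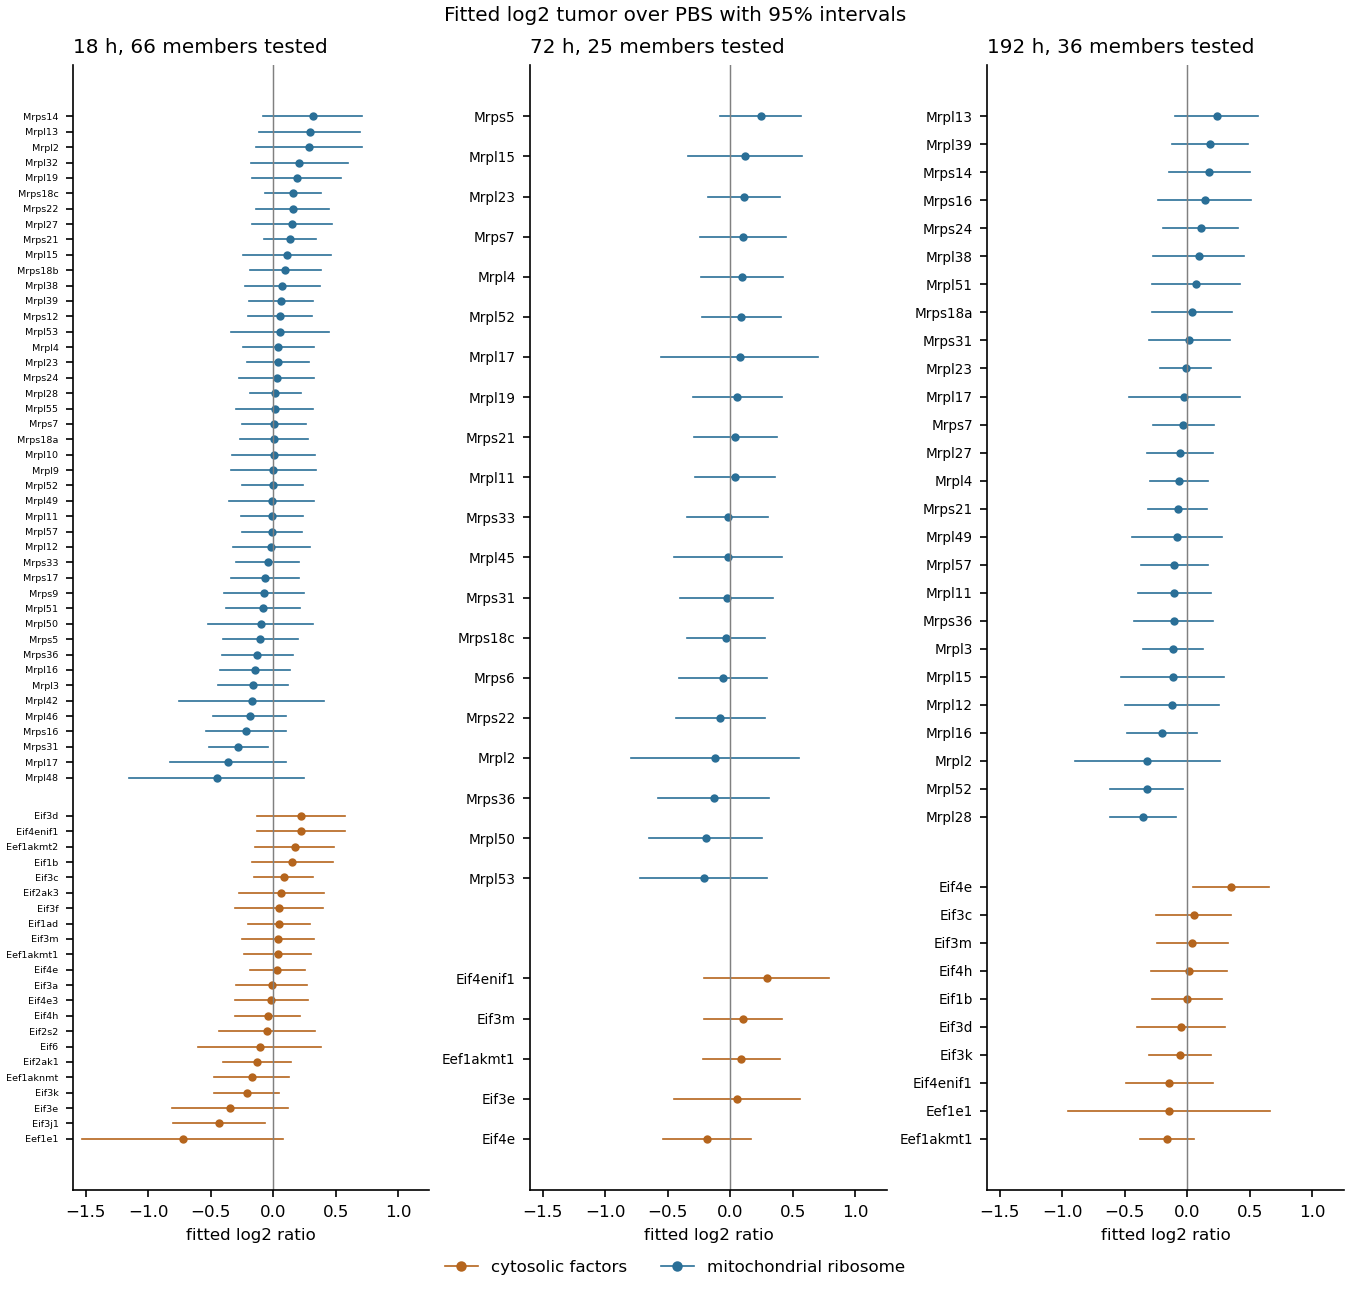
Fitted log2 ratio of tumor over PBS (points) with its 95% interval (lines) for every member tested at 18 h (66 genes), 72 h (25) and 192 h (36), ordered by value within each class. The points scatter around 0, and the intervals that leave out 0 are those of Eif3j1 and Mrps31 at 18 h and of Eif4e, Mrpl28 and Mrpl52 at 192 h.

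Among the Eef1 genes, Eef1e1 had the lowest fitted value of any member at 18 h. Its log2 ratios at 18 h were 0.51, -3.49, 0.081 and 0.0036 in replicates 1, 2, 4 and 5. A single polyA array thus held the low value, and the other 3 replicates were above 0. The fitted value was -0.72 ± 0.36 (SE, n = 4, adjusted p 0.887 in limma), and it was 0.093 without replicate 2. At 192 h the values of Eef1e1 were 0.24, -0.29, -0.37 and -0.17, of both signs. Eef1akmt1, which methylates eEF1A, had -0.13, -0.30, 0.043 and -0.27 in 192 h replicates 1 to 4, with a fitted value of -0.16 ± 0.098 (SE, n = 4, adjusted p 0.999 in limma). At 72 h Eef1akmt1 was at 0.063 and 0.11.

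The eIF1 and eIF6 group (Eif1ad, Eif1b and Eif6) had 3 members tested at 18 h, with fitted values from -0.11 to 0.15. Of the eIF2 group, 3 of 5 members could be tested at 18 h and none later. Eif2ak1, the kinase HRI that phosphorylates eIF2 when heme is short, had -0.29, -0.069, -0.027 and -0.16 in 18 h replicates 1, 3, 4 and 5. All 4 values were below 0, as for 7.5% of all genes at 18 h, with a fitted value of -0.13 ± 0.12 (SE, n = 4, adjusted p 0.915 in limma); under print-tip loess it was 0.038. Eif2ak3, which encodes PERK, the kinase that answers unfolded protein in the endoplasmic reticulum, was at -0.036, -0.05 and 0.28 in 18 h replicates 1, 2 and 5, with only replicate 5 above 0.

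The 8 genes of eIF3, the scaffold of initiation, were all tested at 18 h, with 4 of 8 fitted values above 0 and a median of 0.013. Eif3j1, which encodes a loosely bound subunit of eIF3, had -0.35, -1.18, -0.32 and 0.11 in 18 h replicates 1, 2, 3 and 5. Replicate 2 was far below the others and replicate 5 above 0. The fitted value was -0.43 ± 0.16 (SE, n = 4, unadjusted p 0.0264, adjusted p 0.887 in limma), it was -0.14 without replicate 2, and it was -0.038 in the authors' deposited values. In later samples Eif3j1 was at 0.24 in 72 h replicate 3, and at 0.30 and 0.32 in 192 h replicates 2 and 4, too few for a test.

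Eif3k, a small subunit of eIF3, was at -0.16, -0.037, -0.34 and -0.029 in 18 h replicates 1, 3, 4 and 5 and at 0.24, -0.55, 0.0043 and 0.057 in 192 h replicates 1 to 4. All 4 values at 18 h were below 0, as for 7.5% of all genes in every replicate measured at 18 h. The fitted value at 18 h was -0.21 ± 0.12 (SE, n = 4, adjusted p 0.887 in limma), and at 192 h both signs were present. Eif3e, another eIF3 subunit, had -2.16, -0.45 and 0.088 in 18 h replicates 1, 3 and 5. The lowest of these came from 1 polyA array. The fitted value was -0.34 ± 0.21 (SE, n = 3, adjusted p 0.887 in limma), beside a dye term of -1.49 (adjusted p 0.0238 in limma). That term took up part of the low value, but it rests on polyA values alone (-2.16 in 18 h replicate 1 and 0.77 in 192 h replicate 2). In the dye-swapped total RNA replicates, the dye effect of Eif3e was -0.012 ± 0.11 (SE, n = 5, unadjusted p 0.918 in limma). A dye term passed for 1 of 20 cytosolic factors (Eif3e) and 0 of 42 mitoribosomal genes, beside 209 of 5199 genes. Eif3d, which can bind the cap of some mRNAs by itself, had the highest fitted value of the cytosolic factors at 18 h, 0.22 ± 0.16 (SE, n = 4, adjusted p 0.9 in limma), with 0.0084, 0.31, 0.11 and 0.47 in replicates 1, 2, 3 and 5. It was above 0 in all 4, as were 8.85% of all genes in every replicate measured at 18 h. At 192 h Eif3d was at 0.51, -0.19, 0.073 and -0.61, on both sides of 0. Eif3m was at 0.19 and 0.019 in 72 h replicates 3 and 4.

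In the eIF4 group, Eif4e, which encodes the cap-binding protein, had the smallest p of the cytosolic factors at 192 h. Its log2 ratios there were 0.39, 0.034 and 0.54 in replicates 2, 3 and 4. All 3 were above 0, as were 6.57% of all genes in every replicate measured at 192 h, but replicate 3 was close to 0. The fitted value was 0.35 ± 0.14 (SE, n = 3, unadjusted p 0.0283, adjusted p 0.999 in limma). In the authors' deposited values it was -0.031, so that its direction depended on the processing. At 18 h the values of Eif4e were 0.20, -0.095, -0.15, 0.20 and 0.017, and at 72 h -0.33 and -0.042. The difference of Eif4e between 192 and 72 h was 0.53 ± 0.21 (SE, unadjusted p 0.0275, adjusted p 0.998 in limma). In the authors' deposited values that difference was -0.040, from 0.0085 at 72 h and -0.031 at 192 h.

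Eif4enif1, which encodes the protein 4E-T that carries eIF4E into the nucleus and to processing bodies, was at 0.42 and 0.16 in 72 h replicates 3 and 4 and at -0.45, -0.29, 0.18 and -0.011 in 192 h replicates 1 to 4. At 192 h both polyA replicates were below 0, and the fitted value of -0.14 became 0.083 with total RNA only. Eif4ebp2, which encodes the 4E-BP most abundant in brain, was measured in 18 h replicates 4 and 5 at -0.27 and -0.34 and in 72 h replicate 3 at 0.056, and had too few values for a test.

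**Figure D3:**
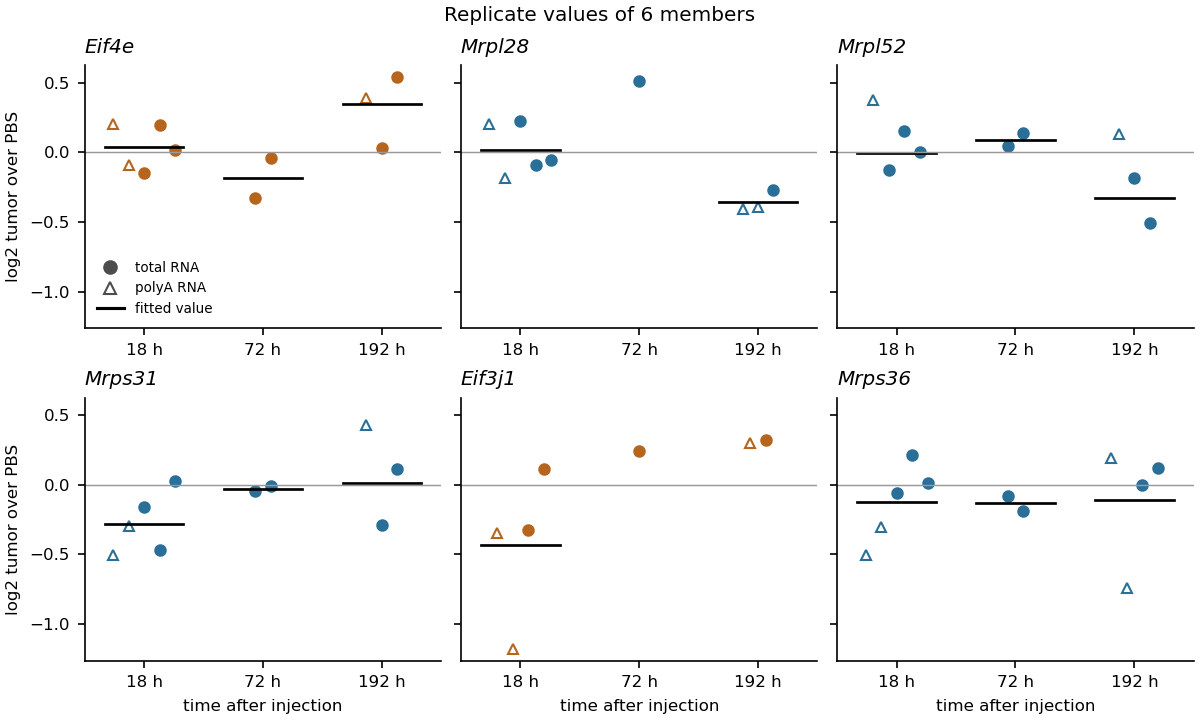
Log2 ratio of tumor over PBS in every replicate measured, for the 5 members with an unadjusted p under 0.05 at some time and for Mrps36, 1 of the 2 members measured in all replicates; filled circles are total RNA, open triangles polyA RNA, and bars the fitted value where a test was made. Mrpl28 is below 0 in all 3 replicates at 192 h and on both sides of 0 at 18 h, while the low fitted value of Eif3j1 at 18 h leans on 1 polyA replicate.

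In the large subunit of the mitochondrial ribosome, 4 of 18 fitted values were above 0 at 192 h (median -0.095), against 5 of 8 in the small subunit (median 0.025) and 41.9% of all genes. At 18 h the counts were 15 of 28 and 9 of 16. These counts are of fitted values over the genes tested, adjusted by a dye term estimated from the polyA replicates alone. In the single 192 h replicates 1 to 4, the large-subunit genes measured were above 0 in 40%, 46.4%, 47.4% and 39.1% of cases, beside 48.5%, 55.2%, 55.7% and 42.5% of all genes. The difference between the subunits was not tested.

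Mrpl28 had the lowest fitted value of the ribosomal genes at 192 h. Its log2 ratios were -0.41, -0.40 and -0.27 in replicates 1, 2 and 4. The 3 values were close together, across both RNA types and both polyA dye orientations, and 7.78% of all genes were likewise below 0 in every replicate measured at 192 h. The fitted value was -0.36 ± 0.12 (SE, n = 3, unadjusted p 0.0124, adjusted p 0.999 in limma); it was -0.19 with print-tip loess and -0.067 in the authors' deposited values. At 18 h Mrpl28 had 0.20, -0.19, 0.23, -0.095 and -0.058, on both sides of 0. The difference of Mrpl28 between 192 and 18 h was -0.38 ± 0.15 (SE, unadjusted p 0.0308, adjusted p 0.803 in limma). It was -0.12 with print-tip loess and -0.068 in the authors' deposited values. Its one value at 72 h, in replicate 3, was 0.51.

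Mrpl52 was at 0.13, -0.19 and -0.51 in 192 h replicates 2, 3 and 4. The polyA replicate was above 0 and both total RNA replicates below it. The fitted value was -0.33 ± 0.13 (SE, n = 3, unadjusted p 0.0301, adjusted p 0.999 in limma), beside a dye term of -0.42 (adjusted p 0.217 in limma). That term rests on polyA values alone, and its sign was opposite to the 0.27 found in the dye-swapped total RNA replicates. The fitted value was -0.19 with no dye term and -0.12 in the authors' deposited values. At 18 h Mrpl52 had 0.38, -0.13, 0.15 and 0.0003 in replicates 2 to 5, and at 72 h 0.043 and 0.13.

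Mrpl16 was at -0.45, -0.33, 0.22 and -0.27 in 192 h replicates 1 to 4, with a fitted value of -0.21 ± 0.13 (SE, n = 4, adjusted p 0.999 in limma). It was -0.35 without replicate 3 and -0.025 with total RNA only. Mrpl13 had the highest fitted value of the ribosomal genes at 192 h, 0.23 ± 0.15 (SE, n = 4, adjusted p 0.999 in limma), from 0.38, 0.70, -0.066 and -0.08 in replicates 1 to 4. With total RNA only, from replicates 3 and 4, the fitted value of Mrpl13 was -0.073. At 18 h Mrpl13 was at 0.04, 0.57 and 0.078 in replicates 1, 4 and 5.

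Mrpl48 had the lowest fitted value of the mitochondrial ribosome at 18 h, -0.45 ± 0.31 (SE, n = 4, adjusted p 0.896 in limma). Its values were 0.41, -2.45, 0.022 and 0.21 in replicates 1, 2, 4 and 5, so only replicate 2 was below 0, and without it the fitted value was 0.16. Mrpl17 likewise had 1 polyA replicate far from the others, with -1.39, 0.11, -0.23 and -0.061 in 18 h replicates 1, 3, 4 and 5. At 72 h Mrpl50 was at -0.20 and -0.19, Mrpl23 at 0.13 and 0.093, and Mrpl53 at -0.65 and 0.23 in replicates 3 and 4, so that Mrpl53 differed in sign between the replicates.

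In the small subunit, Mrps31 had the smallest p of the mitoribosomal genes at 18 h. Its log2 ratios were -0.50, -0.29, -0.16, -0.47 and 0.025 in replicates 1 to 5. Values in 4 of 5 replicates were below 0, among them both polyA replicates, which had opposite dye orientations. The fitted value was -0.28 ± 0.11 (SE, n = 5, unadjusted p 0.0237, adjusted p 0.887 in limma), and -0.18 without replicate 2. Mrps31 was at -0.043 and -0.012 at 72 h and 0.43, -0.29 and 0.11 in 192 h replicates 2 to 4, so that later values lay nearer to 0 or on both sides of it. Mrps14 was at 0.013, 0.79 and -0.018 in 18 h replicates 1, 4 and 5. The high value came from replicate 4 alone, whose arrays matched the others least in brightness. Mrps5 was at 0.24 and 0.24 in the 2 replicates at 72 h, with a fitted value of 0.24 ± 0.14 (SE, n = 2, adjusted p 0.992 in limma), and print-tip loess turned it to -0.041.

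The 2 genes measured in all 11 replicates both carry small-subunit symbols. Mrps21 ranged from -0.25 to 0.45 at 18 h, was at 0.12 and -0.042 at 72 h, and ranged from -0.21 to 0.087 at 192 h. Mrps36 ranged from -0.50 to 0.22, was at -0.083 and -0.18, and ranged from -0.74 to 0.19 at the same times. Both had values on either side of 0 at 18 and 192 h.

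Between times, no member passed either. In the difference of 192 minus 18 h, 1 of 36 members (Mrpl28) had an unadjusted p under 0.05 and 15 of 36 were above 0, beside 5.82% and 45.6% of all genes. In that of 72 minus 18 h these counts were 0 of 23 and 14 of 23, beside 1.64% and 50.5%, and in that of 192 minus 72 h 1 of 15 (Eif4e) and 3 of 15, beside 2.83% and 40%. An adjusted p under 0.05 was reached by 0% of all genes in each difference. The 3 differences share replicates.

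A further pattern in the values of the mitochondrial ribosome followed the dye, and was noticed in these data before it was computed. In the 7 total RNA replicates hybridised in both orientations, its median log2 ratio of tumor over PBS was above 0 on the array with the tumor RNA in Cy5 and below 0 on the array with it in Cy3, over the genes measured on both. With tumor in Cy5 and in Cy3 the medians were 0.19 and -0.19 in 18 h replicate 3, 0.11 and -0.059 in replicate 4, and 0.044 and -0.062 in replicate 5. They were 0.15 and -0.16 in 72 h replicate 3, 0.017 and -0.024 in replicate 4, 0.12 and -0.13 in 192 h replicate 3, and 0.16 and -0.18 in replicate 4. The pattern was less complete under other settings, which were chosen after seeing the data. The Cy3 medians were below 0 in 7 of 7 replicates under each, but the Cy5 medians were above 0 in 5 of 7 in the authors' deposited values, where 18 h replicate 3 was at -0.049 and 72 h replicate 4 at -0.019. They were above 0 in 6 of 7 with median centring, where 72 h replicate 4 was at -0.24, and in 6 of 7 with print-tip loess, where it was at -0.0017. With loess over the whole array, as used here, the mean of both orientations, which is the value used for the tumor comparison, lay between -0.040 and 0.091.

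As the size of this dye difference, the log2 ratio with tumor in Cy5 minus that with tumor in Cy3, divided by 2, was taken for each gene. Its median over the mitoribosomal genes was above 0 in 6 of 7 replicates and -0.038 in 72 h replicate 4, with a mean of 0.10 ± 0.079 (SD, n = 7). That mean was 0.052 in the authors' deposited values and 0.21 with median centring. The same mean was 0.015 ± 0.053 (SD, n = 7) for the cytosolic factors and 0.0069 ± 0.011 (SD, n = 7) for all genes. On all mitoribosomal genes measured on an array, rather than on both, the Cy3 array of 72 h replicate 4 was at 0.024. In a limma fit over the 7 replicates, 40 of 49 mitoribosomal genes and 11 of 22 cytosolic factors had a value above 0, beside 52.4% of all genes. The medians were 0.12, -0.0046 and 0.0095. None of these members passed an adjusted p of 0.05, while 0.567% of all 5815 genes did, all of them below 0, and 11 of the 49 mitoribosomal genes had an unadjusted p under 0.05, beside 8.89% of all genes.

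**Figure D4:**
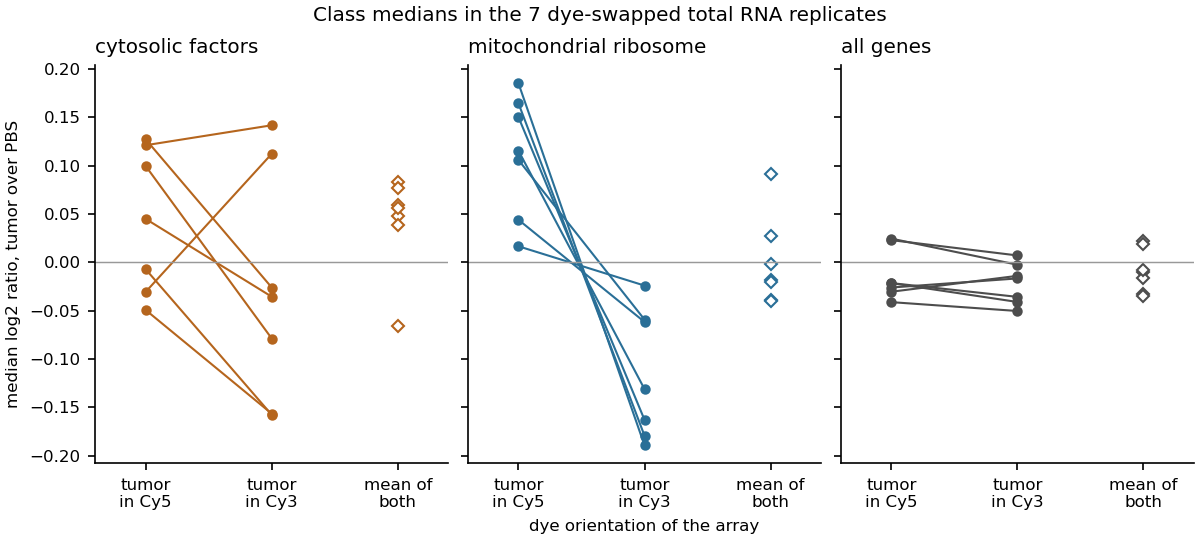
Median log2 ratio of tumor over PBS in each of the 7 total RNA replicates, by dye orientation (circles, joined by a line for the 2 arrays of a replicate) and as the mean of both orientations (diamonds), over the genes measured on both arrays. With whole-array loess, as plotted, all 7 lines of the mitochondrial ribosome cross 0 from above with tumor in Cy5 to below with tumor in Cy3, while the means of both lie between -0.040 and 0.091.

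Mrpl52, whose 192 h values are given above, had a dye difference of 0.27 ± 0.084 (SE, n = 7, unadjusted p 0.0078, adjusted p 0.372 in limma), above 0 in 7 of 7 replicates. Mrps7, Mrpl17 and Mrpl11 were also above 0 in 7 of 7, at 0.22 ± 0.094 (SE, n = 7, adjusted p 0.558 in limma), 0.15 ± 0.066 (SE, n = 7, adjusted p 0.558 in limma) and 0.12 ± 0.072 (SE, n = 7, adjusted p 0.649 in limma). These were 4 of the 9 mitoribosomal genes with a value in all 7 replicates, beside 5.02% of the 618 genes with such values. Mrps24 was the member of the class furthest below 0, at -0.31 ± 0.13 (SE, n = 3, adjusted p 0.558 in limma). The polyA replicates, with 1 orientation each, did not follow the pattern throughout. At 18 h the mitoribosomal median was 0.040 with tumor in Cy5 and -0.16 with tumor in Cy3, but at 192 h it was -0.028 with tumor in Cy5 and 0.043 and 0.034 on the 2 arrays with tumor in Cy3. Gene-specific dye effects were not particular to this class: across all genes, the ratios of the 2 orientations correlated at r from -0.56 to 0.044 in the 7 replicates, and below 0 in 6 of 7. Genes are not independent replicates, and the cause was not tested.

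Other genes of protein synthesis were read from 6 lists. None of 39, 12 and 21 list members tested at 18, 72 and 192 h passed the test in either direction, and none had an unadjusted p under 0.05. The list of mitochondrial translation factors and related genes had a median of -0.073 over 5 genes at 18 h (Tsfm, Mrrf, Ptcd3, Mtif3 and Mtfmt), with 1 of 5 above 0. The integrated stress response is the program switched on when eIF2 is phosphorylated. Genes on its list were above 0 for 6 of 7 at 18 h, 4 of 4 at 72 h and 4 of 5 at 192 h. Of all genes, 49.3%, 52.7% and 41.9% were above 0 at these times, and the list medians were 0.084, 0.075 and 0.086. The list also holds regulators of the program, such as Impact, so these counts are no measure of its activity. Asns, asparagine synthetase, was at 0.11 ± 0.10 (SE, n = 5), and Ddit3, the stress factor CHOP, at -0.011 ± 0.14 (SE, n = 4) at 18 h. The mTOR signalling genes, which act on 4E-BP, were above 0 for 4 of 8, 1 of 2 and 0 of 2.

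The 250 bases before the start were read for the 3 members with an unadjusted p under 0.05 at 192 h, to show what their promoters hold. The sequences are those of RefSeq on GRCm38.p6, all on the plus strand, with motif matches in capitals. For Eif4e the more downstream of 2 listed starts is shown (chr3:138527018-138527267), where the capitals mark the E-box CACGTG in 2 places and CCAAT; the window of the other start (chr3:138525941-138526190) holds none of the 7 motifs counted below. For Mrpl28 (chr17:26123253-26123502) they mark CCAAT on both strands, overlapping in 1 run, and for Mrpl52 (chr14:54426659-54426908) the ETS motif CCGGAAG on the minus strand.
Eif4e: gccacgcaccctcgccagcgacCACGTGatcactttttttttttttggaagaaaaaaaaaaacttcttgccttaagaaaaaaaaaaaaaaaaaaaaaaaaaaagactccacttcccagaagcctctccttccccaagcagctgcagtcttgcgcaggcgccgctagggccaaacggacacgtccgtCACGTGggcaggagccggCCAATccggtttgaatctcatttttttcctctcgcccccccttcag
Mrpl28: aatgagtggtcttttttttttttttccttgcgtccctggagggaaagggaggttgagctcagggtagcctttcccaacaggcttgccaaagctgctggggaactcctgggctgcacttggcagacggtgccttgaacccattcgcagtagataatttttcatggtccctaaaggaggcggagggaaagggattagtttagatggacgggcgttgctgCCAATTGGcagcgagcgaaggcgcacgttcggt
Mrpl52: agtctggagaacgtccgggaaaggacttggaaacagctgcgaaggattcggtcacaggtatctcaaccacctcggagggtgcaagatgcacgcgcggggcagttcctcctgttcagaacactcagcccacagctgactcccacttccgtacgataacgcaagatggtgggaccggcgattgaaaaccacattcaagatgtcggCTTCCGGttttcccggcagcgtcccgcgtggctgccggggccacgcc
A match describes these letters and is no evidence of binding.

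Over all promoters of the same length, 7 motifs were counted on both strands, for 21 of the 25 cytosolic factors and 46 of the 52 mitoribosomal genes that matched the RefSeq table, and for 6913 genes of the array. NRF1 (GCATGCGC), the site of a factor that drives nuclear genes of mitochondria, was in 6 of 46 mitoribosomal promoters and 2 of 21 cytosolic ones, beside 4.22% of array genes. The ETS motif (CCGGAAG) was in 12 of 46 and 6 of 21, beside 11.9%. The E-box (CACGTG), which Myc and its relatives bind, was in 2 of 46 and 6 of 21, beside 8.90%, and Eif4e was 1 of those 6 cytosolic factors. SP1 (GGGCGGG) was in 21 of 46 and 12 of 21, beside 41.2%, CCAAT in 16 and 9, beside 39.8%, and TATAAA in 5 and 1, beside 759 of the 6913 array genes. AAGATGGCG, a YY1 site, was in 0 of 46 and 0 of 21, beside 1.07%.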

How the data were processed

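Per the file headers, each array came as 3 scanner files with spot intensity in 2 channels, local background already subtracted by the authors; the value table deposited beside them holds natural log ratios, of which scale and centring were checked against the scanner values (r 0.586 to 0.856 on the 19 arrays, the same sign on all 19). The sources used here give no software or scanner settings. The first channel was taken to be Cy3 and the second Cy5, after the labels' order, so the direction of tumor over PBS is likely rather than settled; if the channels are the other way round, every sign turns, that of the dye difference included. Of 1149120 intensities, 34.3% were 0 and 945 below 0; a spot was used where both channels were above 0.

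Log2 ratios were normalized within each array by loess (span 0.3, 4 iterations; limma 3.58.1 in R 4.3.3), scans and arrays of a replicate averaged, and total RNA replicates kept only with both orientations. limma was fitted over all genes with 1 coefficient for each time point plus a term for dye. The dye covariate was 0 for total RNA replicates, which hold both orientations. The term was thus estimated from the polyA replicates alone, where dye orientation and replicate number coincide. Benjamini-Hochberg adjustment was made over all genes tested at a time, and an adjusted p under 0.05 was called. Symbols came from the platform annotation, updated by RefSeq. Named genes are, class by class and time by time, the 4 with the smallest p, the highest and the lowest value, genes measured in all replicates, and Eif2ak, Eif4e and Eif4ebp members on the array; genes named for the dye difference were chosen after their values were seen, and so was that comparison. The members and lists were chosen with earlier results of these data known. Replicate numbers were not taken to pair samples. Print-tip loess, median centring, normexp (offset 50), the authors' values, stricter spot filters, total RNA only, a replicate block and leaving out each replicate were tried as alternatives.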

Additional observations from a re-analysis of the deposited data

Results flagged for a closer look

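An outlier check covered 18 groups of 4 or 5 replicate values, taken from the named genes and from the class medians. In each, the lowest or highest replicate was set against its nearest neighbour relative to the range of the group. Among the named genes 2 replicates stood apart, and among the class medians none did. Chance gives about 1 in 20 groups that were not chosen by their values. That share does not apply to genes named for extreme fitted values. Both were 18 h replicate 2, a polyA replicate of 1 array. Eef1e1 was at -3.49 there, and the nearest of the 4 values was 0.0036. Mrpl48 was at -2.45 there, and the nearest of the 4 values was 0.022. That array had the lowest median signal over background, at 0.912, and the part of this in the low values was not tested.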

How the results depend on the processing

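None of the 4 counts of members called in limma left 0 under 23 alternatives each. Median centring moved the median of all genes at 192 h to -0.14, so class medians under it are to be read against that value. The class medians are small, and several moved by more than the spread between replicates. The cytosolic median at 72 h (0.088) was 0.030 with print-tip loess, 0.038 in the authors' values, 0.054 with normexp, -0.0080 with RNA type as covariate and 0.071 with the scan of most measured spots; at 192 h (-0.030) it was -0.19 with median centring. The mitoribosomal median at 72 h (0.0086) was -0.024 with median centring, 0.042 with spots at least as bright as background and 0.072 with the scan of most measured spots. At 192 h (-0.064) it was -0.014 with print-tip loess, -0.15 with median centring, -0.010 in the authors' values, -0.0083 with normexp, -0.0095 with total RNA only and 0.033 with the bright spots. With a replicate block the cytosolic median at 72 h was 0.051 and the mitoribosomal median at 192 h -0.036. Same-numbered polyA replicates of 18 and 192 h correlated at 0.56 and 0.40 for numbers 1 and 2. Differently numbered polyA replicates correlated at -0.43 and -0.53. Number and dye coincide there, so pairing and dye cannot be told apart. Same-numbered total RNA replicates of different times correlated at -0.087 to 0.13. Leaving out each replicate gave ranges of -0.019 to 0.040, 0.060 to 0.088 and -0.12 to 0.0018 for the cytosolic medians at 18, 72 and 192 h, and of -0.043 to 0.013, -0.039 to 0.0086 and -0.094 to 0.049 for the mitoribosomal ones, where the highest value at 192 h was that without replicate 2. The mean dye difference of the mitochondrial ribosome (0.10) was 0.085 with print-tip loess, 0.052 in the authors' values, 0.21 with median centring and 0.087 to 0.12 without each replicate; these alternatives were chosen after seeing the data. The difference of Eif4e between 192 and 72 h turned in the authors' values (-0.040). Among named genes the direction turned for Eef1e1 and Mrpl48 at 18 h without replicate 2 (0.093 and 0.16, in ranges of -0.99 to 0.093 and -0.67 to 0.16 when each replicate was left out), Eif4e in the authors' values (-0.028, 0.0085 and -0.031 at 18, 72 and 192 h) and at 18 h without replicates 1 or 4 (-0.0038 and -0.0060, range -0.0060 to 0.080), Mrps5 at 72 h (-0.041) and Eif2ak1 at 18 h (0.038) with print-tip loess, Mrpl53 at 72 h without replicate 3 (range -0.65 to 0.23), Eif3k at 192 h without replicate 2 (range -0.10 to 0.073), and Eif4enif1, Eif3k and Mrpl13 at 192 h with total RNA only (0.083, 0.030 and -0.073). The cause was not tested. Faint spots and few replicates limit all of these values.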
